A study of Mus musculus with 14 samples.

Results

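Cytokines are secreted proteins by which tissues call in and instruct immune cells, chemokines are the subset that steers cell migration, and acute-phase genes are induced in epithelia and liver during inflammation. A list of 41 mouse genes of these kinds was followed in RNA of the retinal pigment epithelium (RPE), a single sheet of pigmented cells on which the photoreceptors depend. It holds the genes of the IL-1, IL-6 and TNF families, the ligands of the macrophage receptor Csf1r, chemokines, serum amyloids, and the signalling, feedback and adhesion genes that act with them. The genes were listed by name with results of these libraries known, and all 41 had a row among the 34452 mouse genes of the deposited count table. The list was selected on measured values in part: Il1f9 and Saa3 were chosen by their difference between the eyes, Il1f9 being higher and Saa3 lower in the Nrf2 eye of all 7 mice, so their values are given as a description with no test.

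The libraries came from 7 rd1 mice (FVB/N) at postnatal day 20, 14 eyes in all. The study's methods count fewer pairs at this age than the 7 in the labels, and all 7 were used. These mice lack Pde6b function and lose their rods early, and the RPE next to them degenerates. In each mouse 1 eye received AAV-Best1-Nrf2, a virus carrying the human Nrf2 cDNA, together with AAV-Best1-GFP, and its other eye received AAV-Best1-GFP alone. These are called Nrf2 and control eyes, and eyes are numbered by mouse. Both groups therefore share the rd1 mutation, the GFP virus and the human Best1 promoter, which is active mainly in the RPE. The Nrf2 virus, packed in a different capsid, was injected in addition to the GFP virus. The Nrf2 eyes therefore carried a second virus and a larger viral dose besides the transgene, and these cannot be told apart. After removal of the retina the eyecup was put in RNA Protect, and the RNA was purified from the supernatant.

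Library totals ranged from 16548349 to 50543008 counts. Levels are given as CPM, counts per 1000000 after TMM scaling, a correction for library composition, and the human NFE2L2 transcript of the virus measured from 0.989 to 1161 CPM in the control and from 1147 to 9832 CPM in the Nrf2 eyes. The libraries labelled control 3 and Nrf2 4 held almost the same viral level, 1161 and 1147 CPM, and their values of many of the listed genes also lie close together. Several of their cell type marker sums were alike too: 25318 and 23524 CPM for surface epithelium, 504 and 494 for macrophages and microglia, 706 and 690 for fibroblasts, and 47.3 and 47.1 for photoreceptors. Neutrophil, T cell and endothelium sums were less close. Whether the 2 libraries share material or a label is wrong was not tested. Counts of mice below rest on the labels as given. Results on Il1f9, Saa3, Csf1, Tnfrsf1a and Icam1 are therefore given with and without mice 3 and 4. Those on the further pathway genes are given with all 7 mice only. The 11 RPE marker genes summed to between 13630 and 25657 CPM in the control and between 20555 and 31383 CPM in the Nrf2 eyes. Cornea and surface epithelium markers were present too, with Krt12, a keratin of the cornea, between 55.9 and 18697 CPM. Photoreceptor markers were lower in the Nrf2 eye of all 7 mice, with sums of 47.3 to 1049 CPM in the control and 18.7 to 123 CPM in the Nrf2 eyes. The neutrophil markers summed to at most 15.2 CPM in any library, with Elane at 0 in all 14, and the T cell markers to at most 16.3 CPM. The parts of these cells in the results below were not tested. Where a marker term is named, it holds only the summed level of the markers.

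As background, IL-1 family cytokines signal through receptors paired with Il1rap and lead to NF-kB, TNF does so through Tnfrsf1a, and IL-6 and its relatives signal through gp130 (Il6st) and Stat3, which induces the inhibitor Socs3. NF-kB induces its own inhibitors Nfkbia and Tnfaip3, and also adhesion molecules such as Icam1. Nrf2 acts at the antioxidant response element, and the RPE is known as a source of cytokines that act on microglia and choroidal leukocytes.

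The promoters of the 5 genes on which the results turn are shown so that sites of the factors named above can be seen beside the values. Each is the 250 bases before the transcription start, from RefSeq on build GRCm38.p6, printed in the direction of transcription, with matches to 5 motifs in capitals. The motifs, searched on both strands, were the core of the antioxidant response element (TGACNNNGC), C/EBP (TTNNGNAA), STAT (TTCNNNGAA), NF-kB (GGG and CC with 5 bases of any kind between them) and AP-1 (TGANTCA).
Il1f9 (chr2:24186226-24186475, plus strand): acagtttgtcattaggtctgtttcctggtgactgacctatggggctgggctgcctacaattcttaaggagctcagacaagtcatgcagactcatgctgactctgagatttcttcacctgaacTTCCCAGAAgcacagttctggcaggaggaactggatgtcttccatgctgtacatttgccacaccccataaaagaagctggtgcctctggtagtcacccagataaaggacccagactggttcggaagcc
Saa3 (chr7:46715677-46715926, minus strand): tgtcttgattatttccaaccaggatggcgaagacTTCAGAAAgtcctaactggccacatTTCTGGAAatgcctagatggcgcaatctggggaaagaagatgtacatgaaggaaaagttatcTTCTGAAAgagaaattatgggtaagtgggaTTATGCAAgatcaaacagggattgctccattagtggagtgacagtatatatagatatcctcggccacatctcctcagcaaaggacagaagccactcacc
Csf1 (chr3:107760470-107760719, minus strand): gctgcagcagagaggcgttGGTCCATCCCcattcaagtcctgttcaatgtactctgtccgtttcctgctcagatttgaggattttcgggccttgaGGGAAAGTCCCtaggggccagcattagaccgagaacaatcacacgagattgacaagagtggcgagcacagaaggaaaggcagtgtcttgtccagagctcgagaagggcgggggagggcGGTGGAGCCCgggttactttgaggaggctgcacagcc
Tnfrsf1a (chr6:125349473-125349722, plus strand): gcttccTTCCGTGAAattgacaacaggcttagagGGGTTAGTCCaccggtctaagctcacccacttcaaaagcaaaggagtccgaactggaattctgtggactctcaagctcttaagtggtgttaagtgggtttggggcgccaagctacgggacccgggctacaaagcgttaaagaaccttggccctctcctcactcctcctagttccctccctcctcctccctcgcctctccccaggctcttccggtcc
Icam1 (chr9:21015690-21015939, plus strand): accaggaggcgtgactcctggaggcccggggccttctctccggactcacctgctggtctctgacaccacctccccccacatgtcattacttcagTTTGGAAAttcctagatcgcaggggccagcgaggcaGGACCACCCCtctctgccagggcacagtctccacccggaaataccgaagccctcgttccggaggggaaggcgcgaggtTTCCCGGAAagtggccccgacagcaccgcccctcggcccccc

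Counted from the start, Il1f9 had a STAT match at -128, Tnfrsf1a had a STAT match at -244 and an NF-kB match at -216, and Icam1 had a C/EBP match at -156, an NF-kB match at -120 and a STAT match at -42. Saa3 carried 4 C/EBP matches, at -216, -191, -129 and -99. Csf1 carried NF-kB matches at -231, -155, -154 and -37, of which those at -155 and -154 lie on opposite strands and overlap. Matches of different motifs did not overlap in these sequences. Windows of 300 bases, which add the first 50 bases after the start, were found for 31 of the 41 genes, some with several starts, 37 windows in all. The antioxidant response element core was found in 2 of the 31 genes, Cxcl10 and Nfkbia, and in 5.41% of the 37 windows, against 12.4% of 32851 windows of all genes. C/EBP letters were in 59.5% against 40.7%, STAT in 13.5% against 8.3%, NF-kB in 64.9% against 50.8% and AP-1 in 18.9% against 7.81%. No match to the antioxidant response element core or to AP-1 was found in the 5 sequences shown. Such short patterns occur by their letters alone, and these shares are a description.

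Most of the listed genes did not differ detectably between the eyes of a mouse, and 3 of those tested rose in the Nrf2 eyes: Csf1, Tnfrsf1a and Icam1. Enough counts for a test were present for 28 of the 41 genes. Leaving Il1f9 and Saa3 aside, 3 of 26 genes (11.5%) passed an adjusted p of 0.05 in edgeR's quasi-likelihood test with mouse as a term, all of them higher in the Nrf2 eyes, where 3.43% of all 16289 genes tested passed, 2.94% higher and 0.491% lower. At an unadjusted p of 0.05 the number was 7 of 26, beside 18.1% of all genes. The log2 fold changes of the 26 genes did not lean one way: 12 were above 0 and 14 below it, and their median of -0.04 was also that of all genes tested. The direction was the same in all 7 mice for 4 of the 26 genes (15.4%), Csf1, Tnfrsf1a, Icam1 and Socs3, all higher, against 8.57% of all genes in either direction. The groups did not overlap for 1 of them, Icam1, against 1.6% of all genes, and in the 5 mice other than mice 3 and 4 for 3 of them, against 7.82%. Other tests called more of the 26 genes but also more of all genes. DESeq2 called 7 where it called 11.9% of all genes, voom 8 where it called 15.9%, and the fit without a block for mouse 5 where it called 6.75%. Without mouse 4 the paired fit called 8, where it called 12.2% of all genes, and without mice 3 and 4 it called 3, where it called 4.5%, namely Csf1 higher and Il1a and Il18 lower.

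**Figure D1:**
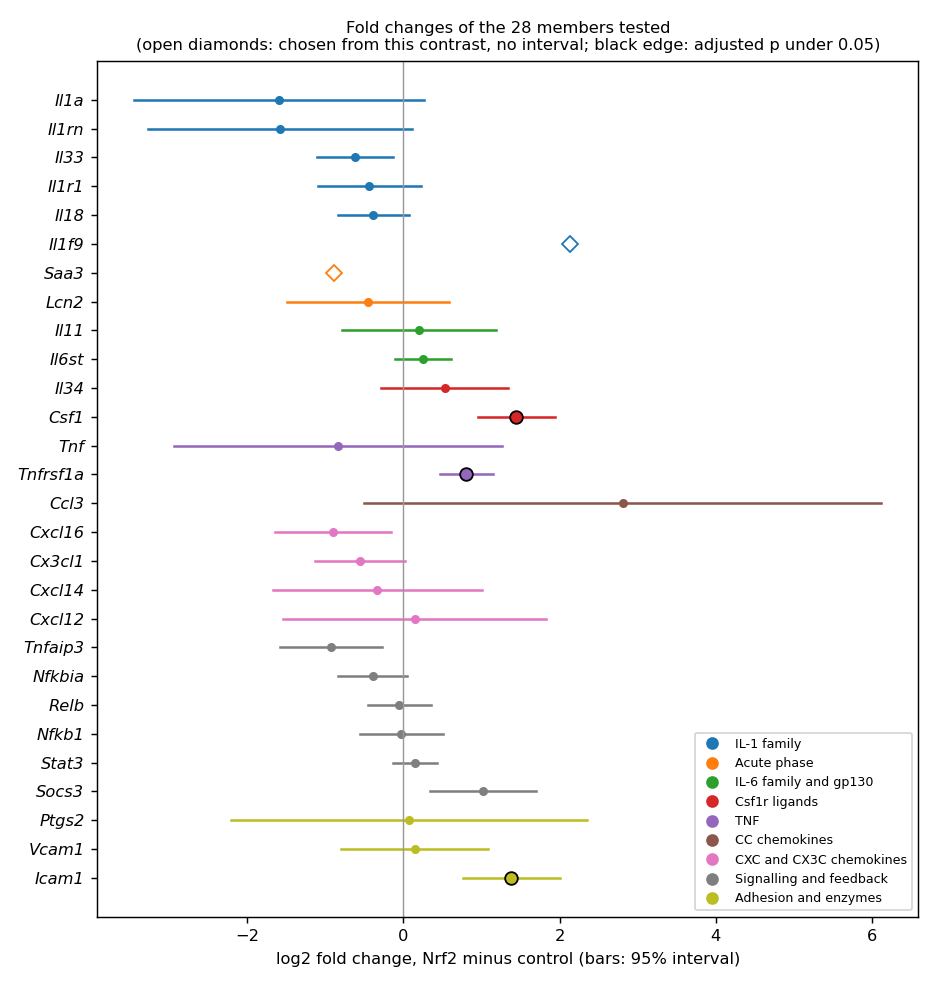
Log2 fold change between Nrf2 and control eyes (x axis) of the 28 listed genes tested, one row per gene, coloured by role, with bars for the 95% interval of the paired edgeR fit. Large black-edged points mark Csf1, Tnfrsf1a and Icam1, the 3 genes past an adjusted p of 0.05, and open diamonds mark Il1f9 and Saa3, which were listed for this difference and carry no interval.

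Of the IL-1 family, Il1f9 stood higher in every Nrf2 eye while none of its other members passed the test. Il1f9 (ENSMUSG00000044103, chr2:24186476-24193568, plus strand, build GRCm38) encodes IL-36 gamma, an epithelial cytokine of that family. In the control eyes of mice 1 to 7 its level was 25.1, 42.5, 29.5, 4.2, 32.3, 51.0 and 45.1 CPM. In their Nrf2 eyes it was 189.9, 135, 130.5, 27.8, 117, 112 and 259.9 CPM. The means were 32.8 ± 15.6 and 139 ± 71.7 CPM (SD, n = 7), and the fitted log2 fold change was 2.14, a 4.40-fold difference. Mouse 4 was the lowest in both groups, and its Nrf2 eye was the only one that fell within the control range. Without mice 3 and 4 the log2 fold change was 2.02, and over all alternatives tried it lay between 2.01 and 2.29. In this bulk RNA, more cells that express a gene and more RNA per cell cannot be told apart.

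The receptor of IL-36 gamma pairs Il1rl2 with Il1rap. In the paired edgeR fit Il1rl2 measured -1.20 ± 0.47 on the log2 scale (SE, adjusted p = 0.223) and Il1rap -0.27 ± 0.21 (adjusted p = 0.517). Il1rl2 ranged from 3.80 to 21.7 CPM in the control and from 1.71 to 14.1 CPM in the Nrf2 eyes, higher in the Nrf2 eye of 1 of 7 mice. Neither receptor chain passed the threshold in edgeR, and DESeq2 called Il1rl2 lower.

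The other IL-1 family genes were chosen for description after their values had been seen. Il1a (interleukin-1 alpha) had a median of 16.8 CPM in the control and 6.74 CPM in the Nrf2 eyes, with ranges of 1.02 to 70.2 and 2.40 to 14.5 CPM. Il1rn, the antagonist of the IL-1 receptor, had medians of 11.7 and 4.86 CPM and ranges of 2.47 to 54.9 and 1.08 to 13.5 CPM. Both were lower in the Nrf2 eye of 6 of 7 mice and higher in that of mouse 4, and the groups overlapped widely. Their log2 fold changes were -1.59 ± 0.81 (adjusted p = 0.343) and -1.59 ± 0.74 (adjusted p = 0.304). Il33, an alarmin stored in the nucleus, measured -0.62 ± 0.21 (adjusted p = 0.173), Il18 -0.39 ± 0.20 (adjusted p = 0.347), and the IL-1 receptor Il1r1 -0.44 ± 0.29 (adjusted p = 0.454). Of these 5 genes 1 had an unadjusted p under 0.05 in edgeR, beside 18.1% of all genes. None was called by DESeq2, where it called 11.9% of all genes, and 3 (Il1a, Il1r1 and Il33, all lower) were called by voom, where it called 15.9%. With mouse 4 left out, Il1a, Il1rn and Il18 passed the edgeR threshold, with log2 fold changes of -2.13, -2.10 and -0.58, where 12.2% of all genes passed.

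The surface epithelium markers moved with Il1a and Il1rn. Their 12 genes summed to between 1854 and 62125 CPM in the control eyes, with a median of 24881, and to between 2531 and 26448 CPM in the Nrf2 eyes, with a median of 8158. The sum was lower in the Nrf2 eye of 6 of 7 mice and higher in that of mouse 4, and all 11 markers tested had a log2 fold change below 0, with a median of -1.18. None of them passed edgeR's threshold, with 1 at an unadjusted p under 0.05, 3 called lower by DESeq2 and 2 by voom. The shares of all genes were 18.1% at that unadjusted p, 11.9% in DESeq2 and 15.9% in voom. Of the control eyes, control 6 was highest and control 4 lowest both for the marker sum and for Il1a and Il1rn. Across the 7 control eyes the log2 level of Il1a and the log2 marker sum had Pearson's r = 0.94 and Spearman's rho = 0.75 (exact permutation p = 0.00714 and 0.0663), which was 0.28 without the 2 eyes farthest from the median of the sum, so that it rests on those eyes. For Il1rn, r was 0.93 and rho 0.89 (exact permutation p = 0.00377 and 0.0123), with r = 0.78 without these 2 eyes. Across the 7 Nrf2 eyes r was 0.95 and rho 0.86 for Il1a (exact permutation p = 0.00417 and 0.0238), with r = 0.89 without the 2 farthest eyes. For Il1rn they were 0.76 and 0.71 (exact permutation p = 0.0444 and 0.0881), with r = 0.41 without the 2 farthest eyes. None of 141 such relations passed an adjusted p of 0.05, the adjusted p of r being 0.0916 and 0.0653 for Il1a and Il1rn in the control eyes and 0.0653 and 0.209 in the Nrf2 eyes. With the log2 marker level as a further term in the edgeR fit, the log2 fold change was -0.11 for Il1a, -0.49 for Il1rn and -0.12 for Il18, and it was 2.27 for Il1f9 and 1.18 for Csf1. Il18 and Il1f9 also went with the marker sum in the control eyes. For Il18, r was 0.94 and rho 0.86 (exact permutation p = 0.00556 and 0.0238, adjusted p of r = 0.0783), with r = 0.66 without the 2 farthest eyes, and in the Nrf2 eyes r was 0.79 and rho 0.75 (exact permutation p = 0.0385 and 0.0663, adjusted p of r = 0.195). For Il1f9, given with no test, r was 0.92 in the control eyes, 0.24 without the 2 farthest eyes, and -0.76 in the Nrf2 eyes, where it was -0.90 without the 2 farthest. The relation in the control eyes was not limited to the IL-1 family. Over the 28 listed genes tested, r was above 0 for 18 there, with a median of 0.56, and for 17 in the Nrf2 eyes, with a median of 0.05. The same count was not taken over all genes, so it does not set the listed genes apart. In the control eyes Stat3 had r = 0.88 and rho = 1 (exact permutation p = 0.00179 and 0.000397, adjusted p of r = 0.0504). Cxcl16 had r = 0.90 and rho = 0.93 there (exact permutation p = 0.00377 and 0.00675, adjusted p of r = 0.0653).

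**Figure D2:**
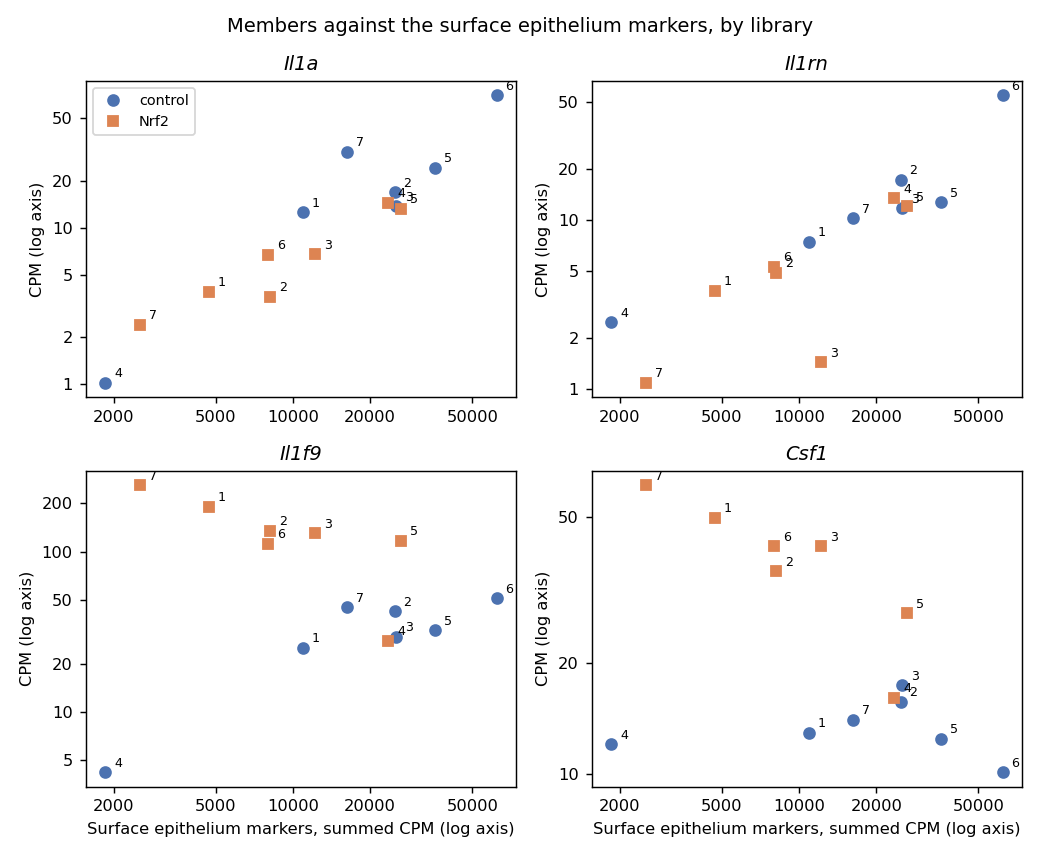
Level of Il1a, Il1rn, Il1f9 and Csf1 (y axis, CPM, log scale) against the summed CPM of 12 surface epithelium markers (x axis, log scale) in each library, numbered by mouse. Il1a and Il1rn rise with the marker sum from control 4, the lowest at 1854 CPM, to control 6, the highest at 62125 CPM, while the Nrf2 eyes lie above the control eyes for Il1f9 and Csf1 at like marker sums, except Nrf2 4, which lies beside control 3.

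Of the acute-phase genes on the list, Saa3 was lower in every Nrf2 eye and the remaining ones were low or did not pass the test. Saa3 (ENSMUSG00000040026, chr7:46711998-46715700, minus strand) encodes a serum amyloid A made outside the liver by epithelia and macrophages. In the control eyes of mice 1 to 7 it measured 49.7, 105, 53.5, 89.0, 79.8, 97.8 and 81.4 CPM. In the Nrf2 eyes it measured 31.4, 48.7, 28.9, 58.5, 39.3, 46.8 and 45.6 CPM. The means were 79.5 ± 21 and 42.7 ± 10.3 CPM (SD, n = 7), with a fitted log2 fold change of -0.88, and the groups overlapped through Nrf2 4, which lay above control 1 and control 3. Without mice 3 and 4 the log2 fold change was -0.94, and over the alternatives it lay between -1.06 and -0.83. Lcn2, a siderophore-binding lipocalin, had medians of 3.29 and 1.42 CPM (log2 fold change -0.45 ± 0.46, adjusted p = 0.636). Saa1 and Saa2, close copies of each other whose reads may be hard to assign, did not reach 1 CPM in any library.

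**Figure D3:**
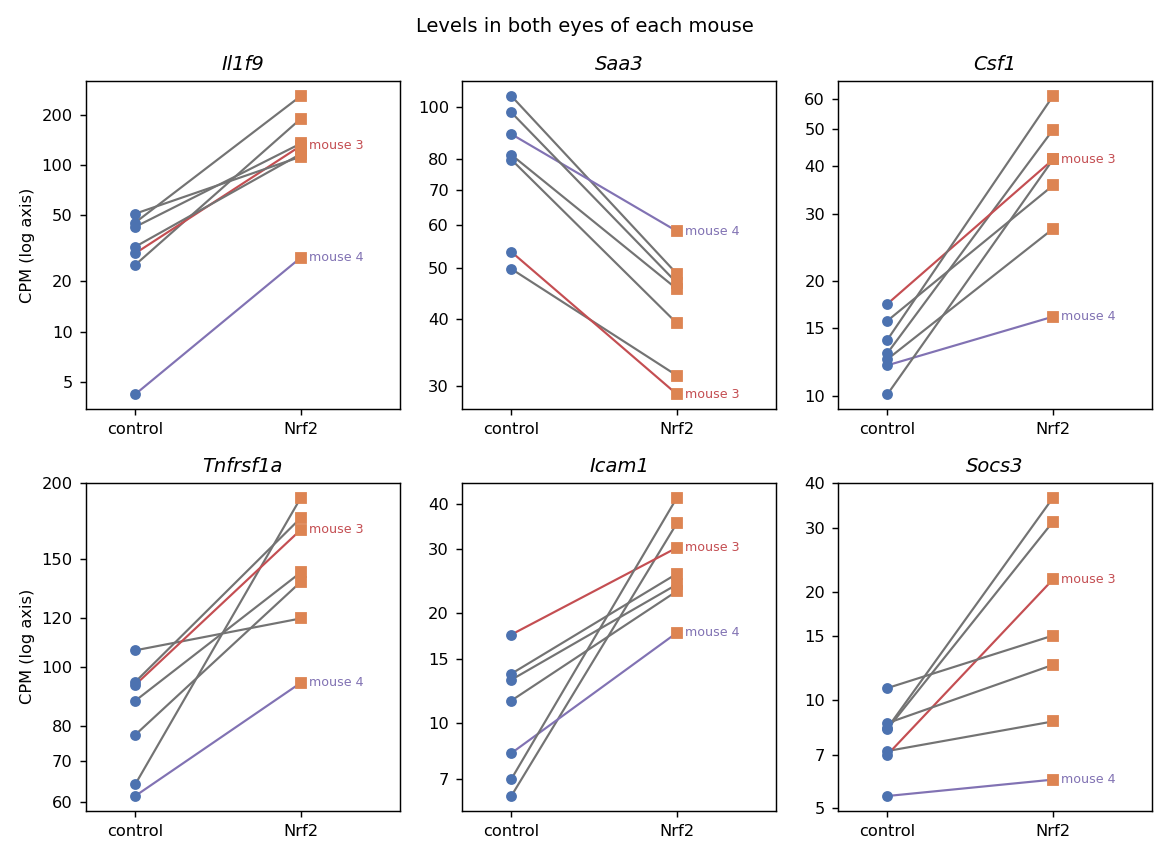
Level of Il1f9, Saa3, Csf1, Tnfrsf1a, Icam1 and Socs3 (y axis, CPM, log scale) in the control and Nrf2 eye of each mouse, joined by a line, with mice 3 and 4 in colour. The Nrf2 eye lies higher than the control eye of the same mouse for 5 of the genes and lower for Saa3 in all 7 mice, and mouse 4 has the lowest Nrf2 eye for Il1f9, Csf1, Tnfrsf1a, Icam1 and Socs3.

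A further list of 22 genes, headed as other acute-phase genes, held 12 that could be tested, of which 3 rose and none fell in edgeR. Whether each of them acts as an acute-phase gene in the mouse was not tested. Of all genes tested, 2.94% were called higher and 0.491% lower, so few lower calls were to be had in any list. A2m, the broad protease inhibitor alpha-2-macroglobulin, ranged from 147 to 403 CPM in the control and from 417 to 1891 CPM in the Nrf2 eyes, without overlap (log2 fold change 2.33 ± 0.26, adjusted p = 0.00936). Its highest control eye was control 3 (next 246 CPM), so the narrow margin to the lowest Nrf2 eye was set by that library. Lbp, which binds bacterial lipopolysaccharide, ranged from 9.52 to 22 and from 20.1 to 48.9 CPM (1.44 ± 0.22, adjusted p = 0.0143). Serpina3n, a serine protease inhibitor, ranged from 140.1 to 329.8 and from 269 to 737 CPM (1.10 ± 0.20, adjusted p = 0.0251). All 3 were higher in the Nrf2 eye of 7 of 7 mice, the opposite side from Saa3. DESeq2 and voom each called these 3 genes and 1 lower gene, Cp (ceruloplasmin), where they called 11.9% and 15.9% of all genes. The lipopolysaccharide receptors Tlr2 (-0.08 ± 0.25, adjusted p = 0.896) and Tlr4 (-0.71 ± 0.48, adjusted p = 0.469) did not pass the test.

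Both ligands of Csf1r, the receptor that keeps macrophages and microglia alive, were present, and of these Csf1 rose. Csf1 (chr3:107741048-107760469, minus strand), macrophage colony-stimulating factor, ranged from 10.1 to 17.4 CPM with a median of 12.9 in the control and from 16.1 to 61.0 CPM with a median of 41.6 in the Nrf2 eyes. All Nrf2 eyes but Nrf2 4 lay above every control eye. The log2 fold change was 1.45 ± 0.22 (SE, adjusted p = 0.0136), a 2.73-fold rise, higher in 7 of 7 mice (exact two-sided sign-flip permutation p = 0.0156, the smallest that 7 pairs can give). Any gene that moves the same way in all 7 mice, as 8.57% of all genes tested did, gets this p, so it adds nothing to that count. Without mice 3 and 4 it was 1.69 (adjusted p = 0.00968). The call was lost when mouse 1, 3 or 7 was left out, with log2 fold changes of 1.36, 1.5 and 1.33 and adjusted p between 0.0505 and 0.0553. Il34, the other ligand, had medians of 8.41 and 12.4 CPM (0.53 ± 0.36, adjusted p = 0.464).

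Genes of macrophages and microglia were low beside those of the RPE. The 13 markers summed to between 262 and 504 CPM in the control and between 196 and 731 CPM in the Nrf2 eyes. Most of that sum came from Csf1r and Itgam. Csf1r itself had medians of 174 and 84.2 CPM (-0.76 ± 0.24, adjusted p = 0.14). Of the 13 markers, 11 had a log2 fold change above 0, and none passed edgeR's threshold, with 2 at an unadjusted p under 0.05, 3 called by DESeq2 (C1qa and C1qb higher, Csf1r lower) and none by voom. Among all genes 18.1% had such an unadjusted p, DESeq2 called 11.9% and voom 15.9%. With the log2 level of the marker sum as a term, the log2 fold change of Csf1 was 1.46 (adjusted p = 0.0416) and that of Il1f9 was 2.12. That sum follows mostly Csf1r and Itgam, and Csf1r lay below 0 where 11 of the 13 markers lay above it. The term therefore does not stand for the markers as a set and cannot show the part of these cells. With the surface epithelium term the value for Csf1 was 1.18 (adjusted p = 0.00781).

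Of the TNF pair, the receptor rose and the ligand was low and did not pass the test. Tnfrsf1a (chr6:125349362-125362484, plus strand), the main TNF receptor of non-immune cells, ranged from 61.4 to 106 CPM with a median of 87.9 in the control and from 94.1 to 189 CPM with a median of 143 in the Nrf2 eyes. Only Nrf2 4 fell within the control range. The log2 fold change was 0.80 ± 0.15 (SE, adjusted p = 0.0268), higher in 7 of 7 mice (exact two-sided sign-flip permutation p = 0.0156, which restates that count). Without mice 3 and 4 it was 0.83 (adjusted p = 0.0623), and the call was also lost without mouse 1, 3, 5, 6 or 7, with no filter on low counts, and with either marker term. The log2 fold change itself lay between 0.68 and 0.92 in all 19 alternatives. Tnf stayed below 6 CPM in every library, with medians of 0.857 and 0.394 CPM (-0.84 ± 0.92, adjusted p = 0.664). Among 15 other genes of the TNF pathway 1 passed the test, where 3.43% of all genes did: Fas, a death receptor of the same family, which ranged from 2.29 to 6.20 CPM in the control and from 7.69 to 18.5 CPM in the Nrf2 eyes (1.55 ± 0.21, adjusted p = 0.011).

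Of the 4 adhesion and enzyme genes, Icam1 rose. Icam1 (chr9:21015985-21028817, plus strand), which binds leukocyte integrins, ranged from 6.28 to 17.5 CPM with a median of 11.5 in the control and from 17.7 to 41.5 CPM with a median of 25.7 in the Nrf2 eyes. The groups did not overlap, but the margin was that between control 3 at 17.5 and Nrf2 4 at 17.7 CPM. The log2 fold change was 1.38 ± 0.27 (SE, adjusted p = 0.0335), higher in 7 of 7 mice (exact two-sided sign-flip permutation p = 0.0156, which restates that count). Without mice 3 and 4 it was 1.56 (adjusted p = 0.0512), and the call was lost on leaving out any 1 mouse other than mouse 4 and with either marker term. The log2 fold change itself lay between 1.18 and 1.59 in all 19 alternatives. Vcam1, an integrin ligand and the gene with the highest mean CPM of these 4, ranged from 5.98 to 36.7 CPM with a median of 30.5 in the control and from 13.5 to 37.5 CPM with a median of 34.5 in the Nrf2 eyes (0.14 ± 0.41, adjusted p = 0.892). The prostaglandin synthase Ptgs2 had medians of 0.957 and 1.17 CPM (0.07 ± 1.00, adjusted p = 0.98).

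The IL-6 pathway was followed through its shared receptor chain, its transcription factor and its inhibitor. Il6st, the gp130 chain, ranged from 67.5 to 135 CPM with a median of 105 in the control and from 73.7 to 139.9 CPM with a median of 131 in the Nrf2 eyes (0.25 ± 0.16, adjusted p = 0.436). Stat3 ranged from 125 to 219 CPM with a median of 161 in the control and from 159.99 to 207 CPM with a median of 183 in the Nrf2 eyes (0.15 ± 0.12, adjusted p = 0.552), and the 95% interval of its log2 fold change ran from -0.13 to 0.42. Socs3 ranged from 5.40 to 10.8 CPM with a median of 8.29 in the control and from 6.00 to 36.5 CPM with a median of 15.1 in the Nrf2 eyes. Socs3 was named because all 7 mice had the higher level in the Nrf2 eye, which fixes the sign-flip p, so none is given. Its log2 fold change of 1.02 ± 0.30 did not pass edgeR's threshold (adjusted p = 0.117), and Nrf2 2 and Nrf2 4 lay within the control range. DESeq2, voom, the fit without a block for mouse and the fit without mouse 4 called it.

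Il6 itself had no count in 13 of 14 libraries and 0.905 CPM in Nrf2 2. Il11, a relative that also uses gp130, had medians of 0.589 and 0.674 CPM (0.20 ± 0.43, adjusted p = 0.845).

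Chemokines on the list did not pass the test. Cx3cl1 (fractalkine), the ligand of the microglial receptor Cx3cr1, ranged from 26.4 to 63.4 CPM with a median of 46.1 in the control and from 19.7 to 46.5 CPM with a median of 29.3 in the Nrf2 eyes (-0.56 ± 0.25, adjusted p = 0.287). Cxcl16, a transmembrane chemokine chosen for mention after its values were seen, had medians of 19.9 and 12.9 CPM (-0.90 ± 0.33, adjusted p = 0.194) and was called lower by DESeq2 and voom. Cxcl12 (0.14 ± 0.74, adjusted p = 0.943) and Cxcl14 (-0.33 ± 0.59, adjusted p = 0.805) varied widely within each group.

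The CC chemokines were near 0. Ccl3 ranged from 0 to 1.21 CPM with a median of 0.062 in the control and from 0 to 2.60 CPM with a median of 0.543 in the Nrf2 eyes (2.81 ± 1.46, adjusted p = 0.349), and DESeq2 called it. Of the CC chemokines below the filter, Ccl2 and Ccl4 were each higher in the Nrf2 eye of 6 of 7 mice. Ccl2 ranged from 0 to 0.211 CPM in the control and from 0.0881 to 0.854 CPM in the Nrf2 eyes (exact two-sided sign-flip permutation p = 0.0312). Ccl4 ranged from 0 to 0.151 CPM in the control and from 0 to 1.12 CPM in the Nrf2 eyes (exact two-sided sign-flip permutation p = 0.0469, or 0.0781 with a prior count of 0.5). Both were chosen for mention after their values were seen, and these p-values are not adjusted for that choice, so they are a description. A count of 0 allows a level of up to 3 counts, between 0.0625 and 0.17 CPM depending on the library. Of 23 other chemokines 9 could be tested and 1 passed, where 3.43% of all genes did: Cxcl5, a neutrophil attractant, ranged from 0.213 to 1.37 CPM in the control and from 0.725 to 5.99 CPM in the Nrf2 eyes (2.38 ± 0.45, adjusted p = 0.0277). Of 16 chemokine receptors 11 could be tested, and none passed edgeR's threshold, had an unadjusted p under 0.05, or was called by DESeq2 or voom.

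NF-kB genes on the list did not pass the threshold in edgeR, and Tnfaip3 had the largest difference among them. The inhibitor Nfkbia measured -0.39 ± 0.19 (adjusted p = 0.326), and the subunits Nfkb1 and Relb -0.03 ± 0.23 (adjusted p = 0.962) and -0.05 ± 0.18 (adjusted p = 0.906). Tnfaip3 (A20), the deubiquitinase that ends TNF signalling, had medians of 23.6 and 13.4 CPM (-0.93 ± 0.29, adjusted p = 0.134). It was lower in the Nrf2 eye of 6 of 7 mice, and DESeq2 and the fit without a block for mouse called it. Of 19 other NF-kB pathway genes, 2 rose by small amounts in edgeR, where 2.94% of all genes were called higher: Cyld, another deubiquitinase (0.63 ± 0.13, adjusted p = 0.0405), and the kinase Map3k7 (0.44 ± 0.10, adjusted p = 0.0441).

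Over all 8 lists of further pathway genes, 106 of the 141 genes reported here could be tested and 7 passed, all higher in the Nrf2 eyes, where 3.43% of all genes passed. In edgeR 26 of the 106 had an unadjusted p under 0.05, beside 18.1% of all genes. DESeq2 called 14 higher and 6 lower, and 11.9% of all genes. The voom fit called 14 higher and 5 lower, and 15.9% of all genes. The list of the IL-1 and IL-36 family, its receptors and the inflammasome gave no call among 18 genes, with 4 at an unadjusted p under 0.05 and 2 genes called by DESeq2 and by voom each. The list of colony-stimulating factors and their receptors gave none among 4 genes, with 1 at an unadjusted p under 0.05, which DESeq2 called (Csf1r, lower) and voom did not.

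**Figure D4:**
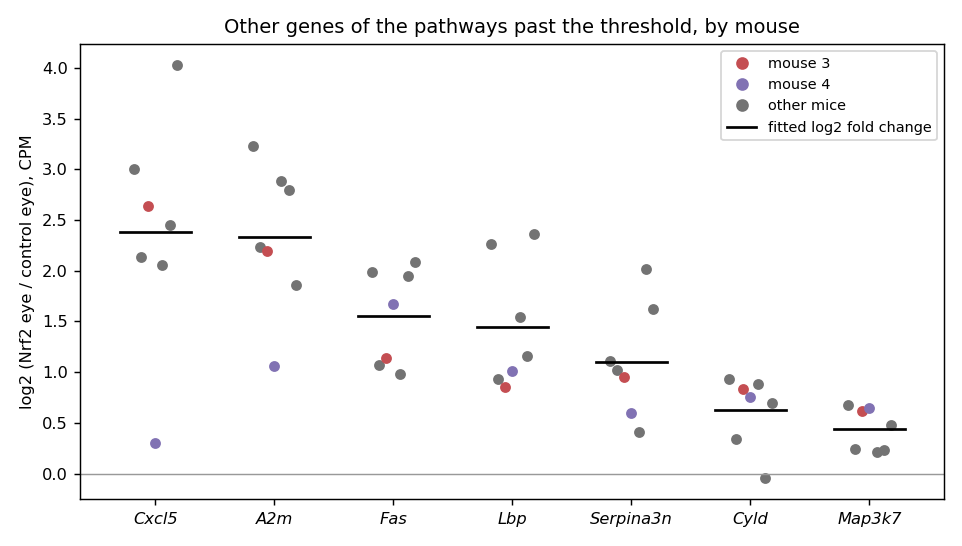
Log2 ratio of the Nrf2 to the control eye of each mouse (y axis, points, mice 3 and 4 in colour) for the 7 further pathway genes reported here that were past an adjusted p of 0.05, with a bar at the fitted log2 fold change. The ratio is above 0 in all 7 mice for every gene except Cyld, which is above 0 in 6 of 7, and Cxcl5 and A2m have the largest fitted values of the 7, 2.38 and 2.33.

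Between genes, levels were compared per kilobase of exon, scaled to a sum of 1000000 over all genes of a library. The length was that of all annotated exons of a gene merged, 1031 bases for Il18 and 2606 for Saa3. Where the transcripts present are shorter than that, the level comes out too low, so ranks between genes are approximate. On this scale Il18 was highest of the 41 genes in the control eyes at 175 ± 30.9 (SD, n = 7). It was followed by Nfkbia (109 ± 47.9), Il33 (97.7 ± 36.3), Tnfrsf1a (96.3 ± 13.5) and Saa3 (91.6 ± 22.9), which did not differ from each other beyond their spread, and by Il1f9 (58.4 ± 25.6), sixth. In the Nrf2 eyes Il1f9 stood first at 223 ± 114, followed by Tnfrsf1a (149.9 ± 26.4) and Il18 (119.9 ± 27.5), and Saa3 was seventh at 44.6 ± 13.7. The spread of Il1f9 in the Nrf2 eyes covers the levels of the next 2 genes. Csf1 moved from rank 21 to rank 11, at 7.73 ± 1.36 and 19.6 ± 7.05.

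**Figure D5:**
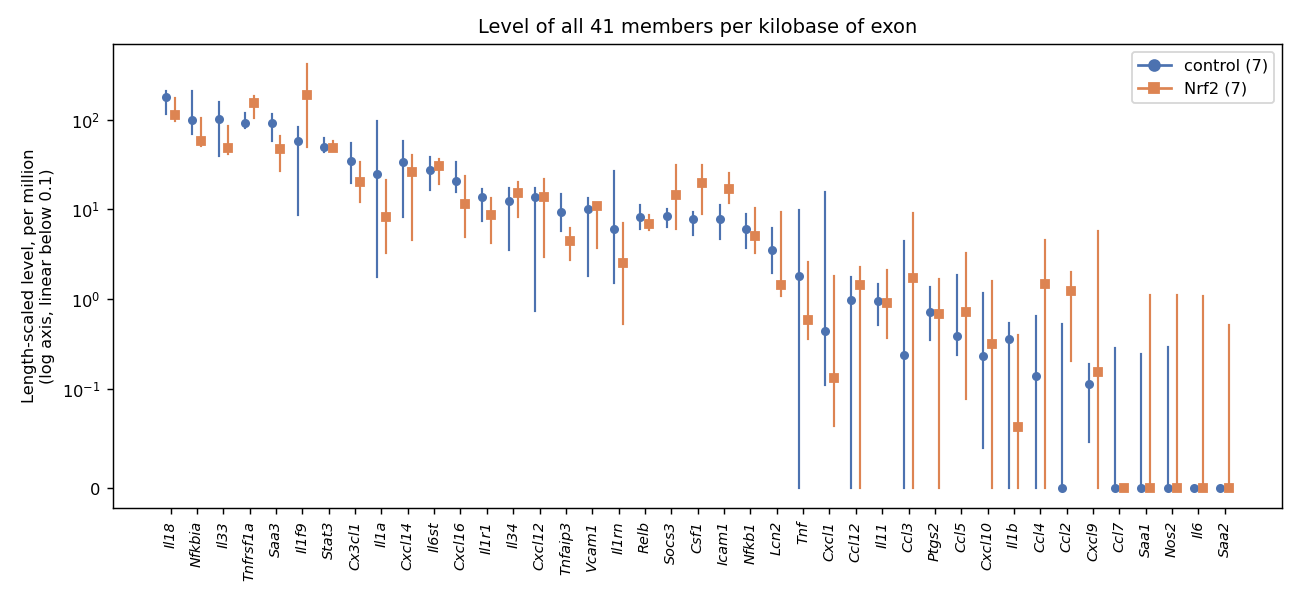
Median (points) and range (bars) of the length-scaled level (y axis, log scale, linear below 0.1) of all 41 genes in the 7 control and 7 Nrf2 eyes, ordered by the mean control level. Il18 is first in the control eyes at a mean of 175, Il1f9 is first in the Nrf2 eyes at a mean of 223, and the classical inflammatory cytokines and CC chemokines sit at the low end.

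The 13 genes below the filter were Il6, Il1b, Nos2, Saa1, Saa2, Ccl2, Ccl4, Ccl5, Ccl7, Ccl12, Cxcl1, Cxcl9 and Cxcl10, among them the cytokines and the nitric oxide synthase (Nos2) of classical inflammation. In 7 of them no library reached 1 CPM. Il1b reached at most 0.354 CPM. For 7 of the 13 the highest library was Nrf2 2, where Cxcl9 stood at 6.05 CPM. That library also had 2.55% of its counts in pseudogenes, against 1.06% to 1.17% in the others, and its T cell markers summed to 16.3 CPM, against 1.5 to 4.17 CPM in the others. The part of either in the values was not tested. Cxcl1, a neutrophil attractant, stood at 10.9 CPM in control 6 and at most 1.19 CPM in the other libraries, and control 6 was also the library highest in surface epithelium markers.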

How the data were processed

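RNA from the supernatant of 14 eyecups of 7 mice was amplified, sequenced and quantified by the authors. Per their methods they ran FastQC and aligned reads with STAR to mm10 with Ensembl 91 genes. In parallel they estimated transcript levels with Salmon (version 0.9.1 in the submitters' processing notes). The deposited table holds whole-number estimated counts per gene, made by the authors before deposit, and which of these routes gave them is not given in the sources used here. Of its 34452 mouse gene rows, 34401 matched the GENCODE M21 annotation (GRCm38). A further row, the human NFE2L2 transcript of the virus, was kept in the library sizes but not among the genes tested.

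Counts were fitted with edgeR 4.0.16 in R 4.3.3 (TMM scaling, filterByExpr with a minimum count of 10, quasi-likelihood F-test, mouse and group as terms), with Benjamini-Hochberg adjustment over 16289 genes. The 2 eyes of a mouse are paired by the labels. The correlation of their deviations from the group means ranged from -0.45 to 0.37 over 13128 genes, so the pairing rests on the animals and not on a shared deviation. Totals of 16548349 to 50543008 counts set the counting error, and a count of 0 allows up to 3 counts. Intervals and these limits cover counting error or the spread between mice only. DESeq2 1.42.0 and limma 3.58.1 (voom) were alternatives, beside other scalings, filters and samples. Single genes were tested by an exact sign-flip permutation of the 7 pair differences, and scripts were tested on simulated data.

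The genes, the pathway and marker lists and the tests were chosen with earlier results of these data known. The genes named were Il1f9, Saa3, those past the threshold or moving the same way in all 7 mice, the one with the highest mean in each role, the further pathway genes past the threshold (at most 6 a list) and Il1rl2, Il1rap, Tlr2 and Tlr4. Other genes named were chosen after their values were seen or complete the account of the 41. Of the pathway lists 1 gene is not reported here, and list counts leave it out. Levels per kilobase used the merged length of all exons annotated for a gene.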

Additional observations from a re-analysis of the deposited data

Results flagged for a closer look

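Among 78 groups of 7 eyes, 11 held an eye whose distance from its nearest neighbour was large beside the range of its group (Dixon's test). About 4 would be flagged if the groups were independent and the values normal. Neither is assured, since the genes share eyes and CPM values can be skewed, so no excess over that number is claimed. Of the 11 flagged, 5 were in control 6, the eye with the highest surface epithelium marker sum. There Il1a stood at 70.2 CPM (next 30.5), Il1rn at 54.9 CPM (next 17.3) and Nfkbia at 125 CPM (next 67.8), while Il34 was lowest at 2.55 CPM (next 6.76) and Vcam1 lowest at 5.98 CPM (next 23.8). In Nrf2 2, the eye with the largest share of pseudogene counts, Il6st was lowest at 73.7 CPM (next 119) and Nfkb1 highest at 42.9 CPM (next 26). Control 3, whose viral transcript level is that of an Nrf2 eye, was highest of the control eyes for Ccl3 at 1.21 CPM (next 0.326) and for A2m at 403 CPM (next 246). Ccl3 was also set apart in Nrf2 7 at 2.60 CPM (next 0.988), and Lcn2 in Nrf2 5 at 9.16 CPM (next 3.46).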

How the results depend on the processing

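The median log2 fold change of the listed genes lay between -0.29 and 0.14 over the alternatives, and the number of calls moved with the processing. Against 559 genes and 3 listed genes in the main test, the fit without a block for mouse, that is without the pairing, called 1100 (877 higher) and 5. DESeq2 called 1943 (1238 higher) and 7 (5 higher), and voom with sample weights 2590 (1585 higher) and 8 (4 higher). Without a filter on low counts 347 genes and 2 listed genes passed. Leaving out 1 mouse gave 111 to 1998 genes and 0 to 8 listed genes, the lowest counts without mouse 7 and the highest without mouse 4, where 978 genes were higher and 1020 lower. Without mice 1, 3 and 7 no listed gene passed in edgeR, with 5, 7 and 8 at an unadjusted p under 0.05. Without mice 3 and 4 both, 745 genes (492 higher) and 3 listed genes passed, Csf1 higher and Il1a and Il18 lower. Without control 3 and Nrf2 4, with no block, 1476 genes (1101 higher) and 6 listed genes passed. Of fits added after seeing the data, that with a surface epithelium term 328 and 1, and that with a macrophage term 211 and 1. Icam1 and Tnfrsf1a each lost their call in 9 of 19 alternatives and Csf1 in 3, and the cause was not tested. Directions turned only in genes that no edgeR fit of all 7 mice called: under voom for Cxcl12 (-0.68), Lcn2 (0.0257), Vcam1 (-0.30) and Ptgs2 (-0.0874), and with the epithelium term for Il11 (-0.0742), Tnf (1.79), Nfkb1 (0.18) and Relb (0.0623). With 1 mouse left out the log2 fold change ranged from -0.0503 to 0.39 for Il11, -0.39 to 0.53 for Cxcl12, -0.75 to 0.065 for Cxcl14, -0.18 to 0.12 for Nfkb1, -0.13 to 0.0456 for Relb, -0.22 to 0.40 for Vcam1 and -0.37 to 0.64 for Ptgs2.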

Other observations

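The level of the viral NFE2L2 transcript varied among the 7 Nrf2 eyes from 1147 to 9832 CPM, and it was set beside the log2 levels of the 28 listed genes tested. The correlation was above 0 for 10 of them, with a median r of -0.31. It was not computed over all genes, so these relations are not shown to be particular to the listed genes. Pearson's r was 0.94 and Spearman's rho 0.93 for Csf1 (exact permutation p = 0.00119 and 0.00675), and r was 0.89 without the 2 eyes farthest from the median. For Tnfrsf1a r was 0.93 and rho 0.96 (exact permutation p = 0.00139 and 0.00278), with r = 0.87 without those eyes. Icam1 had r = 0.87 and rho = 0.93 (exact permutation p = 0.00159 and 0.00675), with r = 0.95 without them, and Socs3 had r = 0.86 and rho = 0.96 (exact permutation p = 0.000992 and 0.00278), with r = 0.89 without them. Each of these 4 had an adjusted p of 0.0504 among the 141 relations, above 0.05. Among the genes with a negative relation, Cxcl16 had r = -0.77 and rho = -0.68 (exact permutation p = 0.019 and 0.11), with r = -0.51 without them. Il1rn had r = -0.73 and rho = -0.86 (exact permutation p = 0.0308 and 0.0238), with r = -0.98 without them. Il1a had r = -0.73 and rho = -0.68 (exact permutation p = 0.0353 and 0.11), and Nfkbia had r = -0.72 and rho = -0.64 (exact permutation p = 0.0192 and 0.139), with r = -0.65 and -0.61 without them. The adjusted p of r was between 0.16 and 0.195 for these 4. For Il1f9 and Saa3, given with no test, r was 0.97 and -0.70, and 0.80 and -0.29 without those eyes. The surface epithelium marker sum had r = -0.69 and rho = -0.82 with the viral transcript over the same eyes (exact permutation p = 0.0714 and 0.0341, adjusted p = 0.246 and 0.301). With that sum, r was -0.87 for Csf1 (exact permutation p = 0.00813, adjusted p = 0.0956) and -0.87 for Icam1 (exact permutation p = 0.0155, adjusted p = 0.156). It was -0.73 for Socs3 (exact permutation p = 0.0625, adjusted p = 0.246) and -0.67 for Tnfrsf1a (exact permutation p = 0.0992, adjusted p = 0.304). Which of the 2 levels these genes go with was not tested.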
